A study of Mus musculus with 28 samples.

Results

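Alternative splicing gives developing neurons protein isoforms that other cells do not make, and a small set of RNA-binding proteins sets most of the neuronal choices. The 10 genes described here encode such proteins: Nova1 and Nova2, Ptbp1 and Ptbp2, Rbfox1, Rbfox2 and Rbfox3, Srrm4, Mbnl2 and Qk. They form a list of gene names, and all 10 were found among 26581 genes listed over the 12 deposited tables. The RNA came from the dorsal lateral geniculate nucleus (dLGN), the part of the thalamus that passes signals of the retina on to visual cortex. C57BL/6J mice, male and female and kept as controls in standard housing, gave tissue at 7 ages, from day 18 of gestation (E18) through postnatal day 4 (P4), P10, P16, P20 and P27 to P32. Each age had 4 libraries, 28 in all, made from total RNA after removal of ribosomal RNA. None carried a mutation or a treatment, so each comparison sets a later age against an earlier one.

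Polypyrimidine tract binding protein 1 (Ptbp1) holds neuronal exons out of transcripts in progenitors and non-neuronal cells, and its neuronal relative Ptbp2 takes its place when neurons are born and is itself reduced as they mature. Srrm4 promotes the inclusion of very short neuronal exons. Nova proteins bind YCAY elements and Rbfox proteins bind UGCAUG, and each activates or silences an exon according to where on the transcript it binds. Muscleblind-like 2 (Mbnl2) favours splice forms of the mature brain, and Quaking (Qk) is best known for its role in oligodendrocytes and astrocytes, where it regulates the RNA of myelin genes.

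The libraries held 8224851 to 40206549 reads in genes, and detected 16938 (P27 library 6) to 24149 genes. A library is called by its age and the number, 3 to 6, of its column. Mitochondrial transcripts took 1.37% to 21.8% of the reads. Xist above 100 CPM (reads per 1000000 reads, scaled) and the Y-linked gene Ddx3y above 5 CPM occurred together in 5 libraries (all 4 of E18, and P27 library 5). Pooling of animals is not described, so n is a number of libraries. The nucleus was dissected by eye from slices. Tcf7l2, a transcription factor of thalamic neurons, was at 126 to 804 CPM over the 28 libraries, and Slc17a6, the vesicular glutamate transporter of thalamic relay neurons, at 84.1 to 791 CPM. Exons of some of the 10 genes share bases with those of other genes, most of all Nova2 with the antisense gene Gm26821 (2652 bases), and Nova1, Ptbp1, Srrm4 and Mbnl2 to a lesser extent. Reads there cannot be told apart, since no source used here says whether counting used strand. All 10 genes passed the filter on low counts in every comparison, and the smallest count of any of them was 288 reads (Ptbp1, P32 library 5).

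Members of a family resemble each other in sequence, and reads of a family can be assigned only where the copies differ. The exons printed here are the short exons whose inclusion or skipping is known to change the proteins, from the GENCODE M21 annotation of GRCm38, the build of the deposited tables. Capitals mark the bases at which the compared genes are not all the same. The first pair is the 34-base exon that Ptbp1 protein causes to be skipped in Ptbp2 and, in its own transcripts, in Ptbp1. Its length is not a multiple of 3, so skipping shifts the reading frame.
Ptbp1, chr10:79862014-79862047, plus strand: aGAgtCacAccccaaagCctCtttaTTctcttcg
Ptbp2, chr3:119724612-119724645, minus strand: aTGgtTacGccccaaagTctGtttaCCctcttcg
The copies share 26 of 34 bases. In the annotation, 2 transcripts of Ptbp1 skip the exon and both are listed as targets of nonsense-mediated decay, and 3 of Ptbp2 skip it, 2 of them listed so.

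The second set is the 93-base exon that encodes part of the RNA recognition motif, the RNA-binding domain of the Rbfox proteins. Its skipping keeps the reading frame and removes part of that domain.
Rbfox1, chr16:7292185-7292277, plus strand: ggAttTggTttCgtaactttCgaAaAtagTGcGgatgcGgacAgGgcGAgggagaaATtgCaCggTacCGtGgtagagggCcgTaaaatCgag
Rbfox2, chr15:77105577-77105669, minus strand: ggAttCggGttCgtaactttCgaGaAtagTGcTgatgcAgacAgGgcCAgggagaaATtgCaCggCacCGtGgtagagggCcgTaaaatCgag
Rbfox3, chr11:118502842-118502934, minus strand: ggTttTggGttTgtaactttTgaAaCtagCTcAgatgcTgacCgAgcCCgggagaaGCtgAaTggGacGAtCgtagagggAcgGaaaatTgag
Rbfox1 and Rbfox2 share 86 of 93 bases here, or 92.5%. Rbfox3 shares 69 of 93 with each of them, or 74.2%. The deposited values are counts per gene, so they give the output of each gene and not whether these exons were included.

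**Figure D1:**
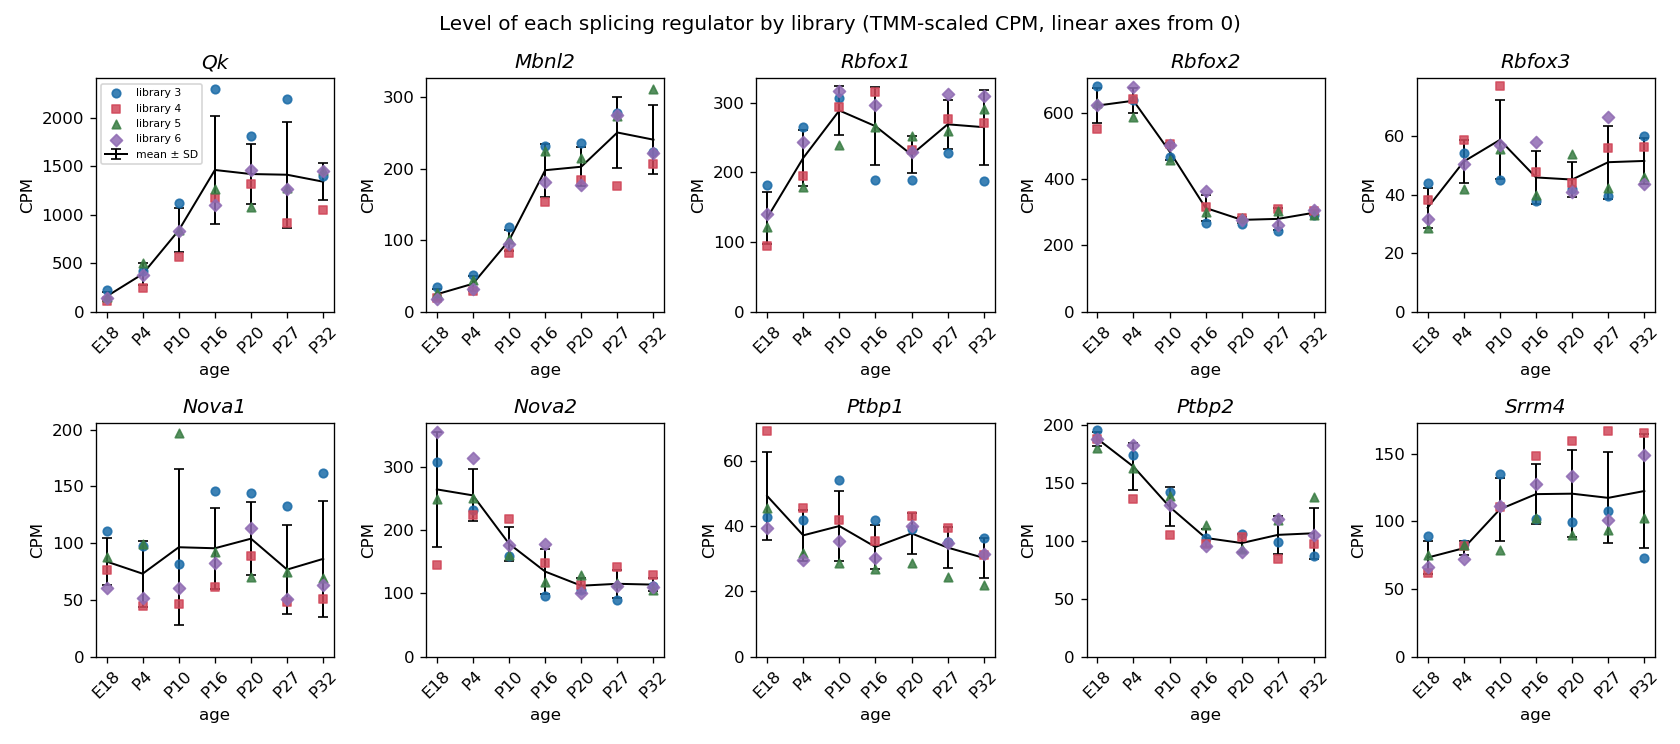
Level of each of the 10 genes in CPM (vertical axes, linear from 0) at the 7 ages (horizontal axes), with 1 symbol per library number, and the mean with its SD (n = 4) as a black line. The mean of Qk climbs until P16 and that of Mbnl2 until P27, those of Nova2 and Ptbp2 decline up to P20 and that of Rbfox2 from P4 to P20, and Nova1 varies as much within an age as between ages.

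Over the whole period, 9 of the 10 genes changed between P32 and E18. Mbnl2, Qk, Rbfox1, Srrm4 and Rbfox3 were higher at P32, and Nova2, Rbfox2, Ptbp2 and Ptbp1 were lower, while Nova1 did not pass the test. The test was edgeR's quasi-likelihood F test with p-values adjusted by Benjamini-Hochberg over all genes tested, and a gene was called at an adjusted p under 0.05. By that rule 9610 of 20109 genes, or 47.8%, were called between P32 and E18, so being called was common, and the sizes of the changes say more than the count. In the test over all 7 ages 7 of the 10 passed, against 51.3% of all genes, and Nova1, Ptbp1 and Rbfox3 did not. The median log2 fold change between P32 and E18 was 0.29 over the 10 genes and 0.03 over all genes. With total-count scaling these medians were -0.01 and -0.29, and 3 of the 10 were called higher and 4 lower. Of all 20109 genes, 3550 were called higher and 6471 lower with that scaling. Mbnl2 was 9.96-fold and Qk 8.60-fold higher at P32, while the folds of the other 7 called genes lay between 0.430 and 1.97.

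Calls between adjacent ages stopped at P16. Between P4 and E18, 1 of the 10 genes was called, against 7.87% of all genes. Between P10 and P4, 4 were called, against 18.4% of all genes, and between P16 and P10, 2 were called, against 11.9%. Between P20 and P16, P27 and P20, and P32 and P27, none of the 10 was called, and neither was any other gene (0% each). In order of age, these late comparisons gave an unadjusted p under 0.05 (edgeR) to 485 of 17949, 476 of 18070 and 73 of 17856 genes. None of those genes was among the 10, and DESeq2 called 0, 6 and 0 genes. These shares are below the 0.05 expected if no gene changed, and a lack of calls does not show that levels stayed the same. The largest late change of any of the 10 was a log2 fold change of -0.45, of Nova1 between P27 and P20. Neighbouring comparisons share the libraries of the age between them and are not independent.

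**Figure D2:**
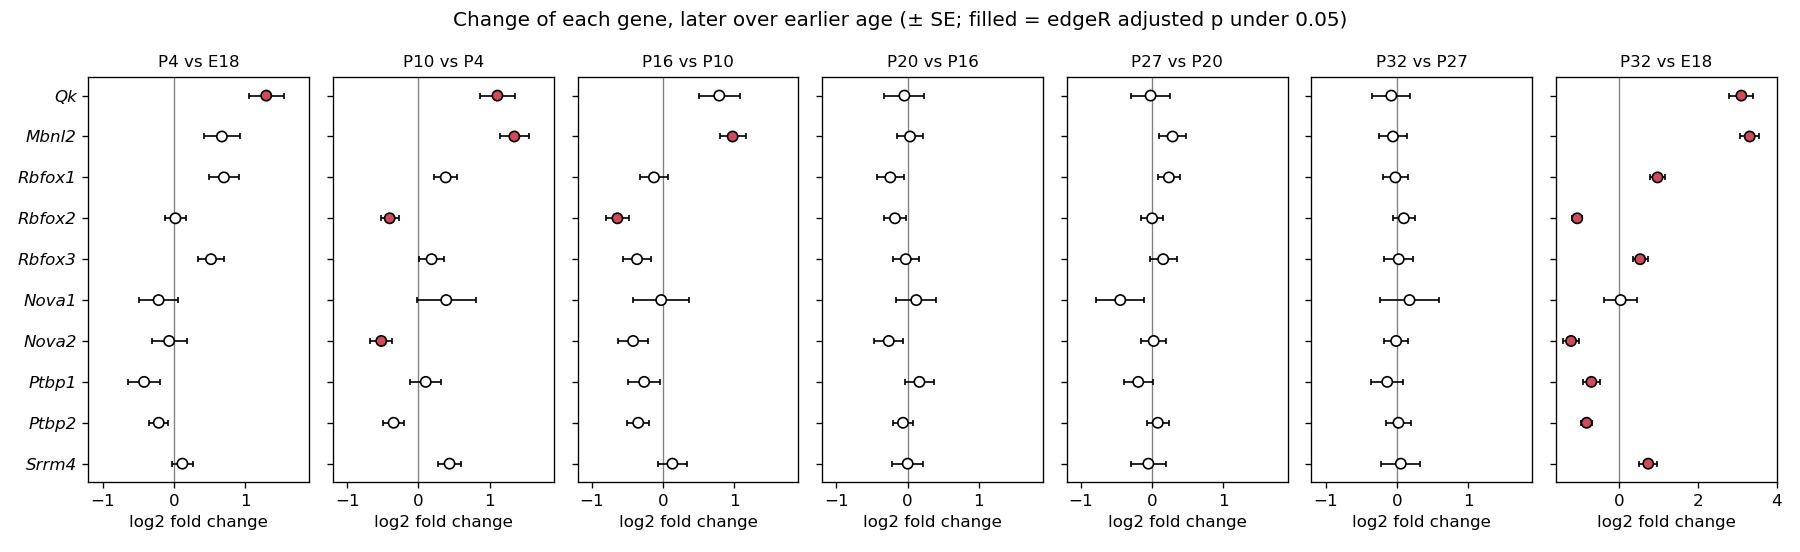
Log2 fold change of each gene, later over earlier age (horizontal axes, ± SE), for the 6 comparisons of adjacent ages and for P32 over E18, which has a wider axis. Filled points passed the test (edgeR, adjusted p under 0.05), and they number 1, 4, 2, 0, 0 and 0 in the adjacent comparisons and 9 between P32 and E18.

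Qk climbed in the first weeks, and its mean was no higher at P20, P27 or P32 (1341 to 1421 CPM) than at P16 (1463 CPM). At E18 its libraries held 222, 110.2, 148 and 144 CPM, and at P4 they held 423, 242, 506 and 379.5 CPM (libraries 3 to 6 in each case). At P10 it stood at 1119, 565, 842 and 832 CPM, and at P16 at 2300, 1177, 1270 and 1105 CPM. No P4 library overlapped the E18 libraries and no P10 library overlapped the P4 libraries, whereas P16 library 6 lay within the range of P10. From P16 on, the 16 libraries ran from 916 to 2300 CPM with a median of 1298 CPM, all above the highest at E18. The log2 fold change was 1.30 (SE 0.25, edgeR adjusted p = 0.00917) between P4 and E18 and 1.11 (SE 0.25, adjusted p = 0.00923) between P10 and P4. It was 0.79 (SE 0.29, adjusted p = 0.0989) between P16 and P10, which missed the threshold, and the authors' deposited table gives a fold of 1.72 with an adjusted p of 0.0487 there. Between P32 and E18 it was 3.10 (SE 0.31, adjusted p = 2.33e-09).

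Mbnl2, one of the muscleblind proteins, had the largest fold change of the 10 genes between P32 and E18. Its E18 libraries held 34.5, 18.4, 26.4 and 17.3 CPM, its P4 libraries 51.2, 28.3, 44.05 and 31.97 CPM, and its P10 libraries 118, 82.6, 102 and 94.5 CPM. At P16 the values were 232, 153, 225 and 181 CPM, and at P32 223, 206, 312 and 221 CPM. Neither P10 and P4 nor P16 and P10 overlapped, while P4 and E18 did. Mbnl2 gained 1.35 on the log2 scale (SE 0.20, edgeR adjusted p = 0.00104) between P10 and P4 and 0.98 (SE 0.18, adjusted p = 0.00381) between P16 and P10. Between P4 and E18 it was 0.67 (SE 0.26, adjusted p = 0.152). From E18 to P32 the gene gained 3.32 on the log2 scale (SE 0.24, adjusted p = 4.61e-12). Per kilobase of gene model, Mbnl2 stood at 51.2 ± 10.2 CPM per kb at P32 and 5.14 ± 1.70 CPM per kb at E18 (SD, n = 4 each). It was the second most abundant of the 10 genes per length at P32, after Qk at 99.4 ± 14.4 CPM per kb.

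In bulk tissue a change in the number of cells of a type and a change in RNA per cell cannot be told apart, and glial genes rose over the same ages as Qk and Mbnl2. The summed level of 12 astrocyte genes was 505 to 626 CPM at E18, 1118 to 1639 CPM at P4, 3589 to 4744 CPM at P10 and 6793 to 7968 CPM at P16, and 6047 to 7290 CPM at P32. All 12 were higher at P32 than at E18. The summed level of 12 genes of myelinating oligodendrocytes was 136 to 152 CPM at E18 and 149 to 201 CPM at P4. Opalin entered as 0 at both ages. Every gene listed between P4 and E18 had at least 4 reads, so Opalin was not listed there and its 0 at E18 was filled in. The sum of the 12 was then 2276 to 2853 CPM at P10, 19686 to 43660 CPM at P16 and 22466 to 34967 CPM at P32. These 12 were likewise all higher at P32 than at E18. Between P4 and E18 Qk was 2.46-fold higher at P4, 2 of the 10 tested myelin genes were called higher and 8 of the 12 astrocyte genes were, as were 7 of 8 oligodendrocyte precursor genes and 7 of 10 microglia genes. The summed level of the 8 precursor genes was 751 to 991 CPM at P4 and 526 to 759 CPM at E18, and that of the 10 microglia genes 125 to 159 CPM at P4 and 56.0 to 85.1 CPM at E18. Within an age, the highest Qk and the highest myelin sum were in the same library at P4 (library 5) and at P16, P20 and P27 (library 3). At E18 and P10 Qk was highest in library 3 and the myelin sum in library 6, and at P32 in libraries 5 and 6. The highest astrocyte sum was in the library with the highest Qk at E18 and P10 (library 3) and at P4 and P32 (library 5). At P16, P20 and P27 the astrocyte sum was highest in library 5. The part of glial cells in the levels of Qk and Mbnl2 was not tested.

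**Figure D3:**
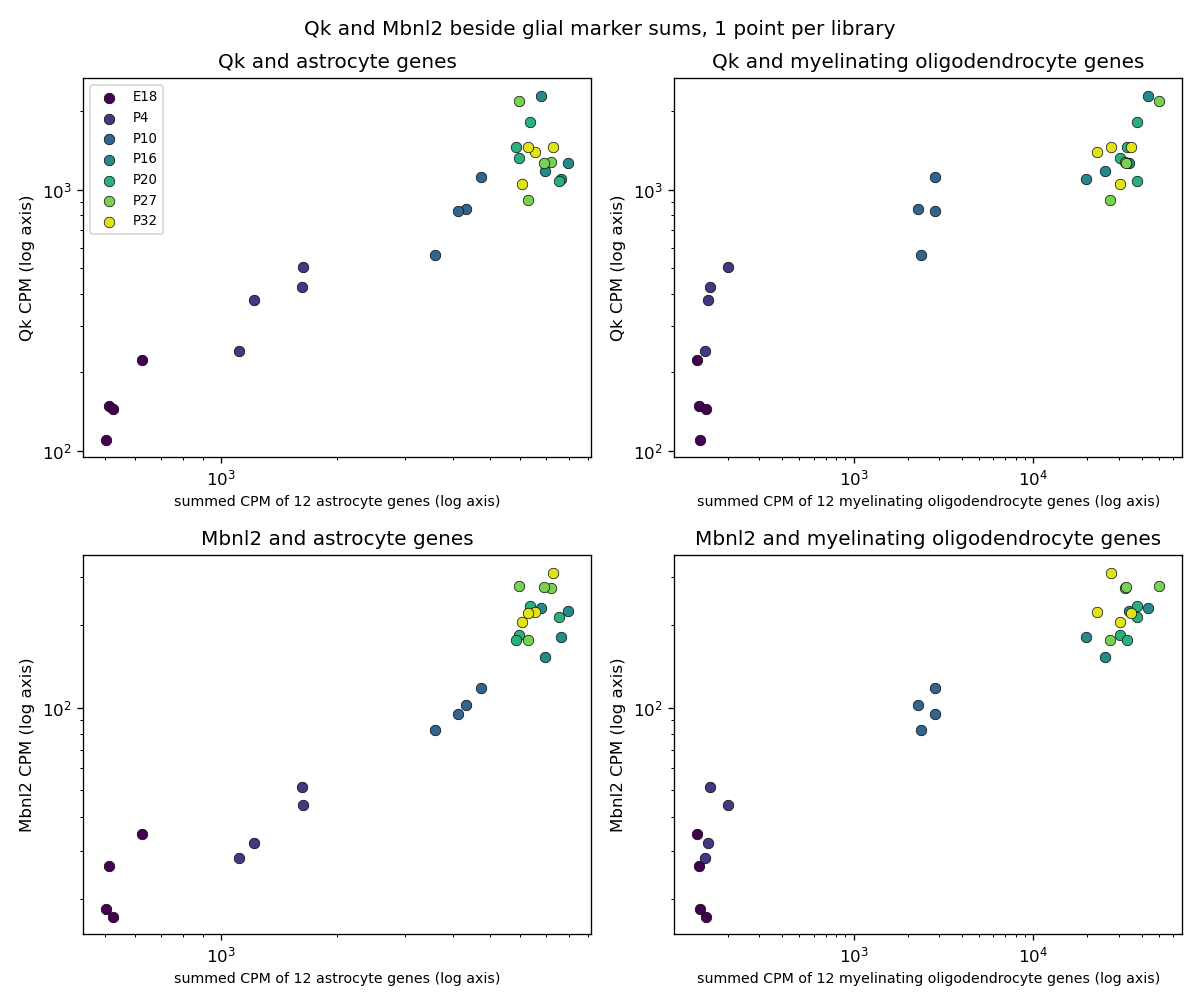
Qk (upper row) and Mbnl2 (lower row) in CPM against the summed CPM of 12 astrocyte genes (left) and of 12 myelinating oligodendrocyte genes (right), all on log axes, with 1 point per library coloured by age. The means of both genes and both sums are lowest at E18. Between E18 and P4 Qk and the astrocyte sum move while the myelin sum stays between 136 and 201 CPM.

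Members of the Rbfox family moved in opposite directions. Rbfox2, which is expressed in many tissues, fell, and Rbfox1 and Rbfox3 (the neuronal nuclear antigen NeuN), both largely restricted to neurons and, for Rbfox1, muscle, were higher at P32 than at E18. Rbfox2 stood at 684, 554, 632 and 625 CPM at E18, at 640.4, 645, 588 and 680.1 CPM at P4 and at 468, 508, 458 and 504 CPM at P10. At P16 it was at 269, 316, 303 and 366 CPM, and at P32 at 292, 305, 293 and 306 CPM. E18 and P4 overlapped, P10 lay wholly below both, and P16 wholly below P10. The log2 fold change was -0.40 (SE 0.12, edgeR adjusted p = 0.0419) between P10 and P4, -0.64 (SE 0.17, adjusted p = 0.0255) between P16 and P10, and -1.06 (SE 0.13, adjusted p = 6.84e-08) between P32 and E18. The call between P10 and P4 was lost when any 1 of the 8 libraries was left out (adjusted p 0.0567 to 0.110) and with no filter on low counts, and the authors' deposited table gives 0.0890. The call between P16 and P10 was lost without P10 library 3, 4 or 6 or P16 library 5 (adjusted p up to 0.0850).

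Rbfox1 had its highest mean, 289 CPM, at P10. Its libraries were at 183, 94.0, 121 and 140.1 CPM at E18, at 265, 195, 179 and 244 CPM at P4, and at 306, 293, 239 and 317 CPM at P10. From P16 on they ran from 188 to 315 CPM, all above the highest E18 library. Its log2 fold change was 0.70 (SE 0.21, edgeR adjusted p = 0.0666) between P4 and E18, where the lowest P4 library (179 CPM) lay just under the highest E18 library (183 CPM), and 0.38 (SE 0.16, adjusted p = 0.118) between P10 and P4. The first of these was called without E18 library 3 (adjusted p = 0.0294), with DESeq2 and in the joint fit. Between P32 and E18 it was 0.98 (SE 0.20, adjusted p = 0.000165).

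Per length, Rbfox3 was the least abundant of the 3 at every age. It had 60.1, 56.3, 46.0 and 43.7 CPM at P32, against 43.9, 38.1, 28.4 and 31.7 CPM at E18. The groups met at the value of E18 library 3, just above that of P32 library 6. For Rbfox3 this was a log2 fold change of 0.54 (SE 0.19, edgeR adjusted p = 0.0233), and the call was lost without E18 library 5 or 6 or P32 library 3 or 4 (adjusted p up to 0.123), with the 8 libraries of the 2 ages alone (0.0517), with DESeq2 (0.0532) and with total-count scaling (0.307). In the test over all 7 ages Rbfox3 did not pass (adjusted p = 0.0654).

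Ratios of genes within a library do not depend on how the libraries are scaled. The Rbfox1 to Rbfox2 log2 ratio of counts was -0.20 ± 0.30 at P32 and -2.25 ± 0.28 at E18 (SD, n = 4 each), a difference of 2.05, and the ages did not overlap (exact two-sided permutation test, p = 0.0286, the smallest possible with 4 against 4, and 0.0714 adjusted over the 5 ratios tested, which misses 0.05). The Rbfox3 to Rbfox2 log2 ratio was -2.55 ± 0.24 at P32 and -4.15 ± 0.29 at E18 (SD, n = 4 each), a difference of 1.60 with the same p and adjusted p (exact permutation test), and again with no overlap. Rbfox3 relative to Rbfox1 differed by -0.45 on the log2 scale (exact permutation test, p = 0.2, adjusted p = 0.25), with overlapping ages. Per length, Rbfox2 made up 77.6 ± 2.6% of the family at E18 (SD, n = 4), 69.0 ± 2.5% at P4, 57.1 ± 1.6% at P10, 49.4 ± 3.0% at P16 and 47.6 ± 3.0% at P32. Rbfox1 made up 40.3 ± 5.7% at P32 and 15.9 ± 2.6% at E18, and Rbfox3 12.1 ± 2.7% at P32 and 6.48 ± 1.22% at E18. The summed level of the family was 59.8 ± 6.8 CPM per kb at E18, 68.8 ± 5.6 CPM per kb at P4 and 46.8 ± 3.5 CPM per kb at P32.

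**Figure D4:**
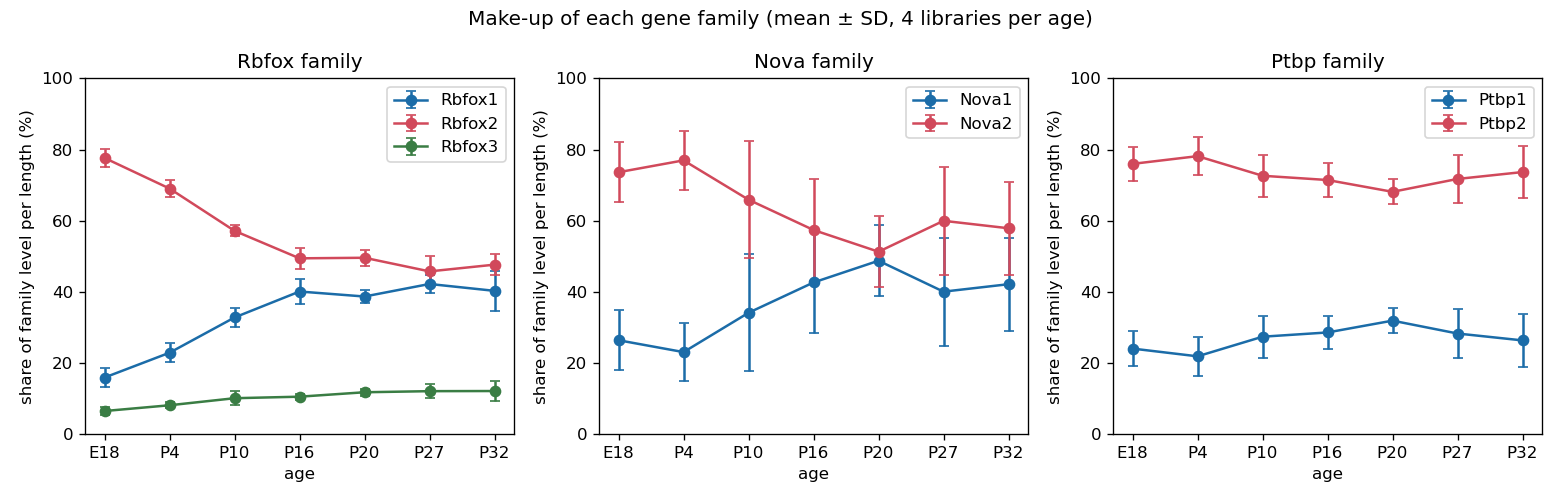
Share of each family's summed level per length (vertical axes, %, mean ± SD, n = 4) taken by its members at the 7 ages, for the Rbfox, Nova and Ptbp families. Rbfox2 declines from E18 to P16 while Rbfox1 gains. The Nova shares have wide SDs and the mean share of Ptbp2 stays between 68.1% and 78.1%.

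In the Nova pair, Nova2 fell and Nova1 did not change detectably. Nova2 is known mainly from the forebrain, and Nova1 mainly from the hindbrain and spinal cord. Nova2 stood at 308, 145, 249 and 355 CPM at E18, at 232, 223, 249.8 and 314 CPM at P4 and at 159.6, 217, 160.3 and 176 CPM at P10. At P32 it was at 112, 128, 105 and 109.8 CPM, and 14 of the 16 libraries from P16 on lay below the lowest at E18. E18 library 4 was the low one of its age and lay below every P10 library. Nova2 had a log2 fold change of -0.52 (SE 0.16, edgeR adjusted p = 0.0358) between P10 and P4, where the ages did not overlap, and -1.22 (SE 0.21, adjusted p = 3.08e-05) between P32 and E18. The call between P10 and P4 was lost without P4 library 5 or 6 or P10 library 3, 5 or 6 (adjusted p up to 0.113) and in the joint fit of all 28 libraries (0.118).

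Nova1 held 162, 50.9, 68.9 and 62.7 CPM at P32, against 110.5, 76.5, 87.3 and 60.4 CPM at E18. Its libraries spread more within an age than its means did between ages, which ran from 73.0 to 104 CPM. The log2 fold change between P32 and E18 was 0.04 (SE 0.41, edgeR adjusted p = 0.944). Library 3 was the highest in 5 of the 7 ages and library 4 the lowest in 5, and the same was true of Qk, while Mbnl2 was highest in library 3 in 6 ages and lowest in library 4 in 5. The Nova2 to Nova1 log2 ratio differed by -1.06 between P32 and E18 (exact two-sided permutation test, p = 0.0571, adjusted p = 0.0952), with overlapping ages.

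Both polypyrimidine tract binding proteins were lower at P32 than at E18, and the mean of Ptbp2 was lower at each age through P20. Ptbp2 stood at 196, 188, 180.4 and 188 CPM at E18, at 174, 136, 163 and 183 CPM at P4, at 142, 105, 138 and 131 CPM at P10 and at 103, 97.4, 114 and 95.8 CPM at P16. All 16 libraries from P16 on, at 84.1 to 138 CPM, were below the lowest E18 library. No single step passed the test, with log2 fold changes of -0.21, -0.35 and -0.35 in the first 3 comparisons (edgeR adjusted p = 0.404, 0.116 and 0.181), while the change between P32 and E18 was -0.82 (SE 0.15, adjusted p = 4.12e-05).

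Ptbp1 was at 36.5, 31.3, 21.9 and 31.5 CPM at P32, against 42.8, 69.3, 45.8 and 39.6 CPM at E18. The ages did not overlap, although library 5 was the lowest in 5 of the 7 ages. This amounted to a log2 fold change of -0.70 (SE 0.22, edgeR adjusted p = 0.00999), while the test over all 7 ages did not pass (adjusted p = 0.121). Genes of progenitors and the cell cycle, which mark cells in which Ptbp1 is known to be expressed, were lower at P32 too. The summed level of 10 such genes was 125 to 144 CPM at P32 and 486 to 775 CPM at E18, with 9 of the 10 called lower. Sums for other non-neuronal cells were higher at P32 than at E18. These were 6047 to 7290 against 505 to 626 CPM for astrocytes and 245 to 337 against 56.0 to 85.1 CPM for microglia. For endothelial cells and pericytes they were 257 to 413 against 221 to 248 CPM, and the oligodendrocyte precursor and myelin sums were higher as well. All 12 astrocyte, 12 myelin and 10 microglia genes were called higher. Of the 8 precursor genes 7 were called higher and 1 lower. Of the 10 endothelial and pericyte genes 4 were called higher and 2 lower. The part of any of these cells in the level of Ptbp1 was not tested. Per length Ptbp2 was the more abundant of the pair in every library at every age, at 66.0% to 83.8% of the pair at P32 and 69.0% to 79.6% at E18. The Ptbp2 to Ptbp1 log2 ratio was 1.81 ± 0.60 at P32 and 1.96 ± 0.37 at E18 (SD, n = 4 each; exact two-sided permutation test, p = 0.686, adjusted p = 0.686).

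Srrm4 (nSR100), which activates neuronal microexons, had 72.9, 165, 103 and 149 CPM at P32, against 89.1, 62.1, 75.1 and 66.5 CPM at E18. P32 library 3 lay inside the E18 range and the other 3 lay above it. From P16 on, 15 of the 16 libraries were above the highest E18 library. The log2 fold change between P32 and E18 was 0.74 (SE 0.23, edgeR adjusted p = 0.00922), and it was lost without P32 library 4 (adjusted p = 0.0549) and with total-count scaling (0.161). Over the 7 ages it passed except with DESeq2 size factors (adjusted p = 0.0609). Between P10 and P4 it was 0.44 (SE 0.17, adjusted p = 0.0912), and without P10 library 5 the gene was called (adjusted p = 0.0215).

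Libraries with the same column number deviated together between P4 and E18 and between P10 and P4, and a test that blocks on the number called more genes there. In the later comparisons of adjacent ages libraries 3, 4 and 5 also deviated together, while library 6 did not. With the block, 5 of the 10 genes were called between P4 and E18, against 29.4% of all genes. Qk (edgeR adjusted p = 2.15e-05), Mbnl2 (0.000234), Rbfox1 (0.000476) and Rbfox3 (0.00149) were higher at P4 and Ptbp1 (0.0148) was lower, with log2 fold changes of 1.29, 0.69, 0.72, 0.52 and -0.40. Between P10 and P4, 7 were called, against 36.2% of all genes: Rbfox1 (log2 fold change 0.39, adjusted p = 0.00946) and Srrm4 (0.41, adjusted p = 0.0305) were higher and Ptbp2 (-0.35, adjusted p = 0.0117) was lower, beside the 4 called without the block.

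Pan-neuronal marker genes moved in both directions. The summed level of 12 pan-neuronal genes was 5349 to 8289 CPM at P32 and 7140 to 10541 CPM at E18, with 5 of the 12 called higher and 6 lower. Their part in the levels of the neuronal members was not tested.

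Among other splicing factors, lower levels at P32 than at E18 were the more common direction. Of 20 tested genes of other tissue-specific splicing regulators, such as the Celf and Khdrbs genes, 11 were lower and 2 higher, with a median log2 fold change of -0.57. Of 24 hnRNP genes 14 were lower and none higher (median -0.56), of 31 core spliceosome genes 16 were lower and none higher (median -0.59), and of 15 SR proteins and relatives 6 were lower and 2 higher (median -0.41). Over all genes 22.5% were lower and 25.3% were higher, with a median of 0.03. With total-count scaling the split of all called genes was 3550 higher and 6471 lower, in place of 5080 and 4530, and the median of all genes shifted by -0.32. Mbnl1, the other brain muscleblind gene, was the highest riser of these lists, at 159.7 ± 43.9 CPM at P32 and 44.05 ± 15.2 CPM at E18 (SD, n = 4 each; log2 fold change 1.86, edgeR adjusted p = 2.57e-06). Srrm2, a large scaffold protein of nuclear speckles, was at 1017 ± 245 CPM at P32 and 473 ± 147 CPM at E18 (SD, n = 4 each; log2 fold change 1.10, adjusted p = 0.00521). Srrm1, an SR-related splicing coactivator, also rose (log2 fold change 0.53, adjusted p = 0.0460). The largest falls were those of Snrpg and Snrpe, small proteins of the spliceosomal Sm ring, and Hnrnpab, an hnRNP protein, at log2 fold changes of -3.30, -2.16 and -1.99 (edgeR adjusted p = 0.000843, 9.45e-06 and 0.000202). Their E18 libraries varied widely, with Snrpg at 0.935 ± 0.818 CPM at P32 and 9.15 ± 8.87 CPM at E18, and Hnrnpab at 77.7 ± 28.8 CPM at P32 and 308 ± 222 CPM at E18 (SD, n = 4 each).

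Between P10 and P4, 5 of 19 tested genes of the other tissue-specific regulators were lower and 1 was higher, with a median log2 fold change of -0.24, against 18.4% of all genes called and a median of -0.01. Between P16 and P10, 3 of these 19 were lower, and between P4 and E18, 1 of 20. Of the SR, hnRNP and core spliceosome genes at most 1 of each list passed in each of these comparisons. Hnrnph3 and Celf3 were lower at P4 than at E18 (log2 fold change -0.90 and -0.54, edgeR adjusted p = 0.0324 and 0.0493). Between P10 and P4, Srrm2 and the U1 protein gene Snrnp70 were higher (0.97 and 0.55, adjusted p = 0.0153 and 0.0321), and Khdrbs3, Celf6 and Khdrbs2 were lower (-1.22, -0.88 and -0.66, adjusted p = 0.00223, 0.00315 and 0.0210). Between P16 and P10, Srsf12, Celf5 and again Celf6 were lower (-1.11, -1.09 and -0.76, adjusted p = 0.0111, 0.0104 and 0.0499).

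Per length, the order of the 10 genes differed between the ends of the series. At P32 Qk and Mbnl2 led, followed by Ptbp2 (28.1 ± 5.9 CPM per kb), Rbfox2 (22.2 ± 0.6 CPM per kb) and Rbfox1 (19.0 ± 3.9 CPM per kb), and Rbfox3 (5.60 ± 0.86 CPM per kb) was last (SD, n = 4 each). At E18 Ptbp2 (49.6 ± 1.7 CPM per kb), Rbfox2 (46.3 ± 4.0 CPM per kb) and Nova2 (31.6 ± 10.8 CPM per kb) led, and Rbfox3 (3.86 ± 0.74 CPM per kb) was again last. At P32 neighbours in the order from Rbfox2 down to Ptbp1 overlapped in their library values, while Qk, Mbnl2, Ptbp2 and Rbfox2 did not overlap each other, and Rbfox3 lay below Ptbp1 without overlap. At E18 each gene overlapped the next in the order, except Srrm4 (8.90 CPM per kb) and Mbnl2 (5.14 CPM per kb).

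Over the 7 age means of log2 CPM the members fell into like courses, given as a description over 7 points that share the same libraries. Mbnl2 and Qk had a Pearson r of 0.978 and Mbnl2 and Srrm4 the same value, Nova2 and Rbfox2 had 0.992 and Nova2 and Ptbp2 0.970, and Ptbp2 ran opposite to Mbnl2 at -0.987. Of 11593 genes that averaged 5 CPM or more over the 28 libraries, the most alike to Qk was Eef1a2 (r = 0.9993, 581 CPM at P32 and 101 CPM at E18), a translation elongation factor. The most alike to Mbnl2 was Septin8 (r = 0.9998, 188 CPM at P32 and 46.6 CPM at E18), and to Nova2 Fgd1 (r = 0.9992) and Pip4k2b (r = 0.9992). Rbfox2 was closest to Ckap4 (r = 0.9975), Ptbp2 to Utp18 (r = 0.9990), Rbfox1 to Asb1 (r = 0.9970) and Srrm4 to Fras1 (r = 0.9987). The courses of Rbfox3, Ptbp1 and Nova1 had less close neighbours, at r = 0.9863 (Ldlrad4), 0.9668 (Ctbp2) and 0.9831 (Dock4).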

How the data were processed

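RNA sequencing was done on 28 dLGN libraries, 4 at each of 7 ages. Per the labels' protocols, ribosomal RNA was removed from total RNA before sequencing on an Illumina NextSeq. The authors deposited whole-number read counts per gene, in 12 tables that list the genes higher and lower between adjacent ages, and these counts were used as they stand after the tables were joined by gene identifier. The deposited tables also give the authors' fold change (a ratio of later to earlier age) and the authors' adjusted p-values, used only where named. GRCm38 (mm10), BWA and edgeR 3.14.0 stand in the submitters' processing notes. The counting tool was not given in the sources used here. The 96 read density columns were not used. In all, 28 gene symbols that had the form of a date or carried a copy or number suffix were repaired. The 3875 genes missing from the tables of an age were set to 0 there.

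Genes were tested with edgeR 4.0.16 (filterByExpr, TMM scaling, quasi-likelihood F test, two-sided) in R 4.3.3, with 8 libraries per adjacent comparison and all 28 for P32 against E18 and for the test over 7 ages. The SE is the absolute log2 fold change divided by the square root of F. The test was checked on simulated counts. Levels are TMM-scaled CPM with all libraries scaled together, and levels per kb use the gene length in the tables. Ratios are log2 of counts plus 1, tested with exact permutation tests. Alternatives were DESeq2 1.42.0, its size factors, total-count scaling, no filter, a block on the column number, the joint fit and leaving out each library. The fit without P27 library 6 was added after seeing the data. Column numbers do not match the labels' replicate numbers, so they only hint at pairing. Deviations of libraries with the same number correlated at 0.544, 0.837, 0.611 and 0.684 between P4 and E18 and at 0.505, 0.738, 0.315 and 0.462 between P10 and P4. In the later comparisons of adjacent ages libraries 3, 4 and 5 correlated at 0.359 to 0.719, and library 6 at -0.316 to -0.042. Between P32 and E18 the values were 0.219, 0.486, 0.028 and 0.28. The highest correlation with a library of another number was 0.387, -0.36, 0.427 and -0.139 between P4 and E18. Between P10 and P4 it was 0.34, -0.099, 0.029 and 0. In the later comparisons of adjacent ages it reached 0.496 for libraries 3 to 5. For library 6 it was 0.079 to 0.462 there, above its correlation with the same number. Nothing but the labels' statement of 4 independent samples says that libraries come from separate animals, so p-values measure the spread between these libraries.

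The members and gene lists were chosen with earlier results of these data known. Besides the 10 members, the text names up to 3 called genes with the largest rise and 3 with the largest fall in each comparison from the lists of other splicing factors averaging 5 CPM or more, and genes most alike to a member over the 7 ages.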

Additional observations from a re-analysis of the deposited data

Results flagged for a closer look

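In 6 of the 70 groups of 4 libraries (10 genes at 7 ages), 1 library stood apart from the other 3 by a gap that, relative to the range of the group, was above Dixon's 95% critical value. Chance flags about 1 group in 20. Nova1 at P32 was at 161.6 CPM in library 3 and at 50.9 to 68.9 CPM in the others. Srrm4 at P4 was at 72.4 CPM in library 6 and at 82.0 to 83.5 CPM in the others. Mbnl2 at P27 was at 176 CPM in library 4 against 273 to 278 CPM, and at P32 at 312 CPM in library 5 against 206 to 223 CPM. Qk at P16 was at 2300 CPM in library 3 against 1105 to 1270 CPM, and at P32 at 1053 CPM in library 4 against 1398 to 1459 CPM. P16 library 3 also had the highest sum of myelinating oligodendrocyte genes of its age (43660 CPM) and the lowest astrocyte sum (6793 CPM). The part of these cells in the level of Qk was not tested.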

How the results depend on the processing

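The comparisons of 2 ages were repeated with other scalings, DESeq2, no filter, the block, another set of libraries and without each library. The test over 7 ages was repeated with DESeq2 size factors, no filter, the block and without P27 library 6, and the 5 ratios with a pseudocount of 0.5, on scaled CPM and without each library. No called result changed sign under those run for it. With a block on the column number, the genes called among the 10 numbered 5 between P4 and E18 and 7 between P10 and P4, and of all genes 5528, 6408, 3399 and 1 were called in the first 4 comparisons of adjacent ages. The DESeq2 Wald test called 2 of the 10 and 2318 genes between P4 and E18, and the joint fit of all libraries called 2 of the 10 and 1270 genes. Between P27 and P20 total-count scaling called 1 gene, the DESeq2 Wald test 6, no filter 1 and the joint fit 1. Leaving out 1 library gave 1 to 2 of the 10 and 774 to 1409 genes between P4 and E18 (lowest without E18 library 5, then P4 library 6 with 896 and E18 library 6 with 898), 2 to 3 of the 10 and 2082 to 3187 genes between P10 and P4 (lowest without P10 library 6), 1 to 2 of the 10 and 1274 to 2509 genes between P16 and P10 (lowest without P10 library 6), and 0 to 1 genes between P27 and P20 (1 without P27 library 4). The 2 ratios that did not overlap stayed between 1.95 and 2.20 (Rbfox1 to Rbfox2) and between 1.49 and 1.70 (Rbfox3 to Rbfox2), with p = 0.0571, the smallest an exact permutation test of 3 against 4 libraries can give. Without P27 library 6, 9 of the 10 and 10287 of all genes were called between P32 and E18 (9 and 9610 with it). Over the 7 ages 7 of the 10 and 10860 of all genes were called without it (7 and 10311 with it). Of the results for single genes under an alternative, 985 kept their side of the threshold, 30 lost a call and 15 gained one. With the block 9 of the 10 and 12397 of all genes passed over the 7 ages, in place of 7 and 10311. The block added Ptbp1 (edgeR adjusted p = 0.00378) and Rbfox3 (0.0340) there, and with it Qk was called between P16 and P10 (0.0186). Counting error is largest for Ptbp1, which had the smallest count in a library (288 reads).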
